A study of Mus musculus with 10 samples.

Results

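The BAF (SWI/SNF) complex is an ATP-driven chromatin remodeller assembled from a core and from subunits that come in alternative forms. As neural progenitors leave the cell cycle, ACTL6A (BAF53A), SS18 and the PHD-finger proteins PHF10 (BAF45A) and DPF2 (BAF45D) give way to ACTL6B (BAF53B), SS18L1 (CREST) and DPF1 (BAF45B) or DPF3 (BAF45C), which are found in the neuronal complex. PBRM1 (BAF180), together with PHF10, marks the PBAF form, and BRD9 marks the non-canonical form, whereas ARID1A, the subunit targeted here, belongs to the canonical form. The genes described are these 10 variant subunits (*Actl6a*, *Actl6b*, *Dpf1*, *Dpf2*, *Dpf3*, *Phf10*, *Ss18*, *Ss18l1*, *Pbrm1* and *Brd9*), taken by symbol from the 53974 genes of the RNA-seq table, and the 6 ATAC-seq regions, of 16600, that lie within 1000 bp of an end of one of them. All 10 genes passed the filter on low values and were among the 17555 genes tested.

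The mice were C57BL/6, 8 to 10 weeks old, and all carried floxed *Arid1a* alleles (Arid1a fl/fl). AAV2 with a CMV promoter, which is not restricted to one cell type, delivered Cre (labelled cKO, genotype Arid1a del/del) or GFP (labelled WT) into the eye 2 weeks before optic nerve crush (ONC), and retinal cells were sorted with an antibody to Thy1.2 at 3 days after ONC. There were 3 RNA-seq and 2 ATAC-seq libraries under each label, described as biological replicates. No uninjured library is among them. Each sample pooled several retinas, with the right eye of each mouse injected, so p-values measure the spread between pools and not between single mice. *Arid1a* itself had 18.8, 11.7 and 14.1 TPM in the libraries labelled WT and 18.8, 27.9 and 25.0 TPM in those labelled cKO, so its gene-level RNA was not lower under the label cKO. Gene-level TPM can also count transcripts that lack a deleted segment, and no value per exon was used here, so these levels do not check the deletion, and the libraries are called by their labels below.

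The sorted cells are labelled retinal ganglion cells (RGCs), and most RGC markers were low. *Pou4f2*, a defining RGC transcription factor, was at 0 TPM in 5 of 6 libraries, and the 11 RGC markers other than *Thy1* summed to between 21.8 and 56.0 TPM. The 8 rod markers summed to 12300 to 17163 TPM under the label WT and to 25059 to 47812 TPM under the label cKO, all 8 of them higher at an unadjusted p under 0.05 from limma. The 6 myeloid markers summed to 1779 to 2786 TPM and to 699.6 to 961 TPM, with 4 of 6 lower. The 7 T cell markers summed to 289 to 800 TPM and to 72.3 to 170 TPM, with 6 of 7 lower by the same measure. In mixed cells, fewer cells of a type and less RNA per cell cannot be told apart. None of the marker genes listed was at 0 in all 6 libraries. Sequencing depth is not given with TPM (an abundance per transcript length scaled to the same sum in each library), so no counting error can be stated.

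Promoter windows from RefSeq on GRCm38.p6 were used for 9 of the 10 genes. Each held 250 bases before and 50 bases after an annotated start site. For *Actl6b* that site (137553546) lay inside the gene boundary (137553361) used for regions. *Brd9* had a 2nd window with the same counts of the motifs below, and 1 window per gene was counted. The 4 shown are those of the actin-like pair, *Actl6a* and *Actl6b*, one of which differed most in chromatin and the other in RNA, and of the 2 neuronal DPF genes. Capitals mark GC boxes (GGGCGG or, on the other strand, CCGCCC), the letters recognised by Sp1-type factors, and CCAAT boxes (CCAAT or ATTGG), the letters recognised by NF-Y.
*Actl6a*, chr3:32708296-32708595 (plus strand): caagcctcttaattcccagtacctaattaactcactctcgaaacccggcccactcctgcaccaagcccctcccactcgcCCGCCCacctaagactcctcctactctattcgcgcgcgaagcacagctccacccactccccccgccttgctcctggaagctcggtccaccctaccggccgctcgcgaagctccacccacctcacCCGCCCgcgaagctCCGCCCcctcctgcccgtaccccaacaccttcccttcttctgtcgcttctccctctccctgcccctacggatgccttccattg
*Actl6b*, chr5:137553296-137553595 (plus strand): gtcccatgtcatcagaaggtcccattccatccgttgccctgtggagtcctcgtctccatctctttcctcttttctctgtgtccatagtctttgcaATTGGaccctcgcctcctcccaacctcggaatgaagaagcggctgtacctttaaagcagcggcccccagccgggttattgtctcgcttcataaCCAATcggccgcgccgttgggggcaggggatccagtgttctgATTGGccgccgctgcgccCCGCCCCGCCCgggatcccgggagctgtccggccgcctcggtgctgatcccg
*Dpf1*, chr7:29303755-29304054 (plus strand): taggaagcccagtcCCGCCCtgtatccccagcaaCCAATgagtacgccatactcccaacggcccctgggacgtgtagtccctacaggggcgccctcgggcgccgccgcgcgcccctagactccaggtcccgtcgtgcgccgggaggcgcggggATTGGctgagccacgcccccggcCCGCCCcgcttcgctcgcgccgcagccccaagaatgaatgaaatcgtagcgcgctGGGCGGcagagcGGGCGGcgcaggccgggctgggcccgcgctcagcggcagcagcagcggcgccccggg
*Dpf3*, chr12:83487687-83487986 (minus strand): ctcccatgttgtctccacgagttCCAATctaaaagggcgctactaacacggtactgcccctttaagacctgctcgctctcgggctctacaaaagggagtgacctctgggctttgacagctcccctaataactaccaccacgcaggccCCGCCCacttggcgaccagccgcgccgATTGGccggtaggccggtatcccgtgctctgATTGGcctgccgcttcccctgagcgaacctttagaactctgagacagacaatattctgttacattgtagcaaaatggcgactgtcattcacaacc

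CCAAT boxes were found 3 times in the *Actl6b* window, 2 times in *Dpf1* and 3 times in *Dpf3*, which are genes of the neuronal forms. They were found 1 time in *Dpf2* and 0 times in *Actl6a*, *Phf10*, *Ss18l1*, *Pbrm1* and *Brd9*. Of 32851 promoter windows of 300 bases in RefSeq, 11.7% held 2 or more and 37.4% at least 1. *Ss18l1* was the neuronal form without one in this window. GC boxes were present in 8 of the 9 windows, from 1 in *Dpf3* to 5 in *Phf10* and 0 in *Dpf2*, against 35.7% of all windows with at least 1. The 9 windows were 55.3% (*Dpf3*) to 87.0% (*Phf10*) G and C, where the median of all windows was 52.7%. The shares are not adjusted for this richness in G and C. The NRF1-type core TGCGCA, which reads the same on both strands, occurred 2 times in *Dpf2* and 1 time in *Brd9*, and 7.76% of all windows held it. The ETS core CCGGAA or TTCCGG occurred 1 time each in *Pbrm1* and *Brd9* and in 14.9% of all windows. These are matches of letters and not measured binding, and the window of *Ss18* was not analysed here.

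Across all 6 libraries the order of mean level, on the TPM scale, was *Dpf2* (148 TPM), *Brd9* (80.6), *Actl6a* (66.0), *Dpf3* (38.9), *Ss18* (31.1), *Actl6b* (23.4), *Pbrm1* (22.4), *Ss18l1* (9.45), *Phf10* (7.60) and *Dpf1* (2.65). *Dpf2* lay above *Brd9* in 6 of 6 libraries, *Actl6a* above *Dpf3* in 6, *Pbrm1* above *Ss18l1* in 6 and *Phf10* above *Dpf1* in 6. The other neighbours exchanged places between libraries, in part along the labels. *Dpf3* was above *Ss18* in 0 of 3 libraries labelled WT and in 3 of 3 labelled cKO, and *Actl6b* was above *Pbrm1* in 0 of 3 and 2 of 3. *Ss18* was above *Actl6b* in 3 of 3 libraries labelled WT and in 1 of 3 labelled cKO. *Brd9* was above *Actl6a* in 2 of 3 under each label, and *Ss18l1* above *Phf10* in 1 of 3 and 2 of 3. The progenitor forms of the actin-like and SS18 subunits were thus the more abundant ones in every library.

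To see how the variant subunits differed between the labels, log2(TPM + 1) was compared with limma across all genes tested. At an adjusted p under 0.05 from limma 0 of the 10 genes were called, beside 0.0057% of all genes. At an unadjusted p under 0.05, 2 of the 10 were higher in the libraries labelled cKO (*Actl6b* and *Dpf3*), beside 11.9% of all genes, and 0 of 10 were lower, beside 6.45%. The same 2 genes had every library labelled cKO above every one labelled WT, as 18.7% of genes did, and 0 of 10 had them all below, as 7.18% did. A share of 2 in 10 without overlap is close to that background. The median log2 fold change was 0.20 over the 10 genes and 0.16 over all genes tested. With libraries scaled to the median of ratios, these medians were 0.039 and 0.012.

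**Figure D1:**
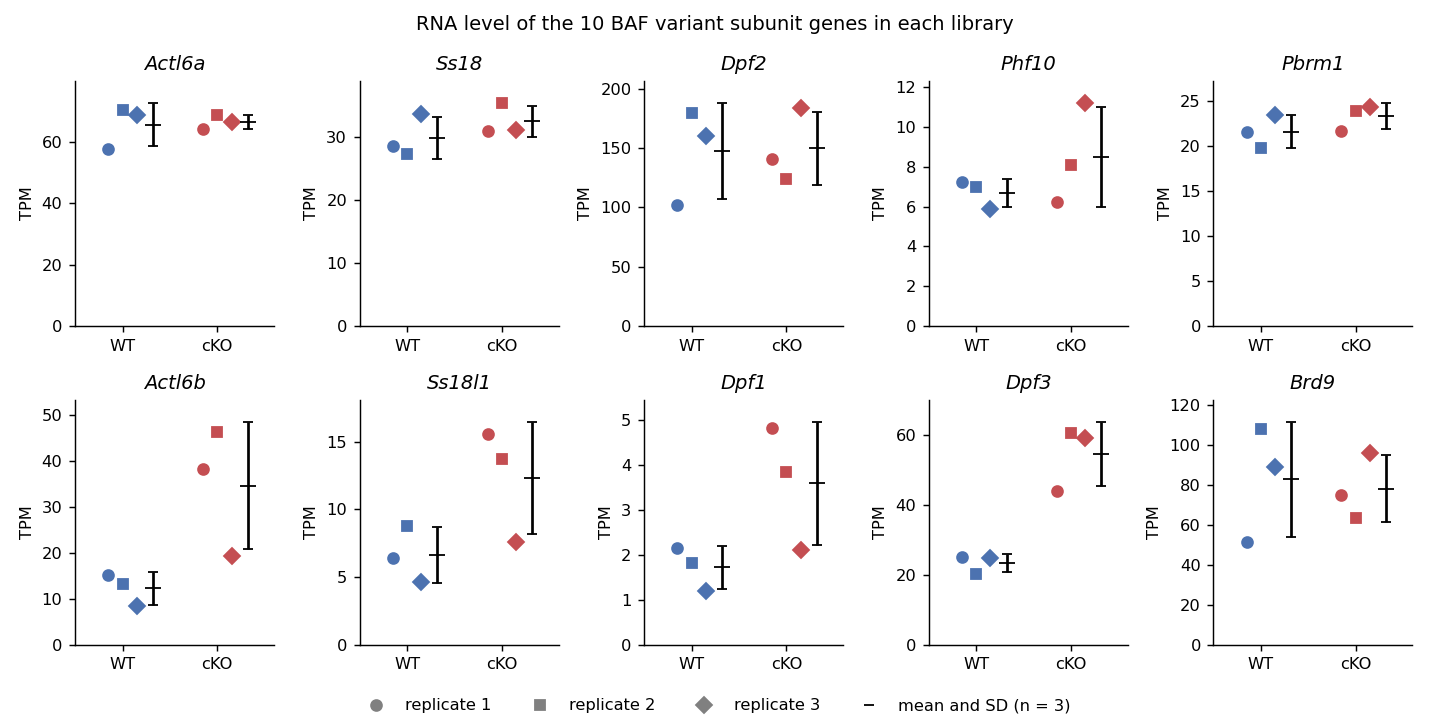
TPM of each of the 10 genes (vertical axes, linear from 0) in the 3 libraries labelled WT (blue) and the 3 labelled cKO (red), with the mean and SD in black and a symbol for each replicate number. *Actl6b* and *Dpf3* are the genes whose groups do not overlap; replicate 3 labelled cKO is the lowest of its group for *Actl6b*, *Ss18l1* and *Dpf1*.

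*Actl6b* encodes the neuronal actin-like subunit, which is known for its part in dendrite growth and memory. It had 15.2, 13.1 and 8.30 TPM in the libraries labelled WT and 38.2, 46.3 and 19.3 TPM in those labelled cKO (replicates 1, 2 and 3). The group means were 12.2 ± 3.54 TPM and 34.6 ± 13.9 TPM (SD, n = 3). The groups did not overlap, and the lowest library labelled cKO, replicate 3, lay close to the highest labelled WT. The log2 fold change was 1.38 (standard error 0.39, 95% interval 0.46 to 2.31, unadjusted p = 0.00943 and adjusted p = 0.153 from limma). The exact two-sided permutation test gave p = 0.1, below which a design of 3 against 3 cannot go.

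*Actl6a* encodes the progenitor actin-like subunit, which ACTL6B replaces in neurons. Its levels were 57.7, 70.3 and 68.8 TPM under the label WT and 64.2, 68.6 and 66.3 TPM under the label cKO. All 6 libraries lay within a range of 1.22-fold, and the groups overlapped. The log2 fold change was 0.022, with a 95% interval of -0.43 to 0.48 (adjusted p = 0.965 from limma), and it was -0.15 after scaling by the median of ratios.

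*Dpf3* encodes a PHD-finger subunit that binds modified histone tails and is known from heart and skeletal muscle as well as from neurons. The gene had 24.9, 20.3 and 24.7 TPM under the label WT and 43.9, 60.5 and 59.1 TPM under the label cKO. Its means were 23.3 ± 2.61 TPM and 54.5 ± 9.22 TPM (SD, n = 3), and the lowest library labelled cKO was well above the highest labelled WT. The log2 fold change of 1.18 (standard error 0.23, 95% interval 0.64 to 1.73, unadjusted p = 0.00132 and adjusted p = 0.124 from limma) was the most precise of the 4 neuronal genes. Leaving out each library in turn kept it between 1.09 and 1.33.

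*Dpf1*, the other neuronal DPF gene, was the least abundant of the 10. It had 2.15, 1.81 and 1.19 TPM under the label WT and 4.82, 3.84 and 2.11 TPM under the label cKO. Replicate 3 labelled cKO fell just below replicate 1 labelled WT, so the groups overlapped. The log2 fold change was 0.73 (95% interval -0.077 to 1.53, unadjusted p = 0.0700, adjusted p = 0.306 from limma), on a scale that understates changes at such low levels; with a pseudocount of 0.1 it was 0.98.

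*Dpf2* is the widely expressed member of the DPF genes. It had 102, 180 and 160 TPM under the label WT and 141, 124 and 184 TPM under the label cKO, with overlapping groups and a log2 fold change of 0.045 (95% interval -0.63 to 0.72, adjusted p = 0.950 from limma). *Phf10*, which pairs with PBRM1 in PBAF, had 7.23, 6.96 and 5.89 TPM and then 6.23, 8.07 and 11.2 TPM. Its log2 fold change was 0.27 (95% interval -0.42 to 0.97, adjusted p = 0.653 from limma), and the groups overlapped.

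*Ss18l1*, the calcium-responsive transactivator of neurons, had 6.36, 8.78 and 4.64 TPM under the label WT and 15.6, 13.7 and 7.61 TPM under the label cKO. Replicate 3 labelled cKO lay below replicate 2 labelled WT. The log2 fold change was 0.79 (standard error 0.36, 95% interval -0.068 to 1.65, unadjusted p = 0.0660, adjusted p = 0.301 from limma). *Ss18*, its counterpart in progenitors, had 28.6, 27.2 and 33.6 TPM and then 30.9, 35.3 and 31.1 TPM. For *Ss18* the groups overlapped, with a log2 fold change of 0.12 (95% interval -0.37 to 0.62, adjusted p = 0.786 from limma).

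The subunits that mark the other 2 forms of the complex gave intervals around 0 as well. *Pbrm1*, the polybromo subunit of PBAF, had 21.6, 19.7 and 23.4 TPM under the label WT and 21.7, 23.8 and 24.4 TPM under the label cKO, a log2 fold change of 0.11 (95% interval -0.40 to 0.61, adjusted p = 0.818 from limma). *Brd9*, the bromodomain subunit of the non-canonical form, had 51.5, 108 and 89.1 TPM and then 75.2, 63.2 and 96.3 TPM. Its SD among libraries labelled WT was 28.8 TPM, and the log2 fold change was -0.039 (95% interval -0.80 to 0.73, adjusted p = 0.963 from limma). For *Pbrm1* and *Brd9* the groups overlapped.

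Whether the replicate numbers are pairs is not known. Deviations of same-numbered RNA-seq libraries correlated at 0.334, 0.101 and 0.425, and cKO replicate 2 correlated best with WT replicate 1. In limma with the replicate number as a block, *Ss18l1* (unadjusted p = 0.0282) and *Dpf1* (unadjusted p = 0.0476) joined *Actl6b* and *Dpf3*. That made 4 of 10 genes higher, all 4 of them neuronal forms, beside 13.4% of all genes in the same limma fit. The adjusted p was 0.181 for *Ss18l1* and 0.223 for *Dpf1*. Without the block, the number of members higher at an unadjusted p under 0.05 depended on the library left out. It was 4 without replicate 3 labelled cKO, beside 13.5% of all genes, 3 without replicate 2 labelled WT and 2 without any one of the other 4. The share of all genes was not computed for the fits with 3 or 2, so those counts cannot be set against a background. Replicate 3 labelled cKO is the lowest of its group in 3 of these genes, so leaving it out raises their group means by construction. Without replicate 1 labelled cKO, the unadjusted p from limma was 0.204 for *Ss18l1* and 0.220 for *Dpf1*.

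A ratio of 2 genes within a library does not move when that library is scaled, and so the neuronal forms were also set against their counterparts. *Actl6b* made up 20.9%, 15.7% and 10.8% of the summed TPM of *Actl6b* and *Actl6a* under the label WT and 37.3%, 40.3% and 22.5% under the label cKO. The 2 groups did not overlap, and the mean log2 ratio (pseudocount of 1) was higher by 1.36 (from -2.37 ± 0.53 to -1.01 ± 0.63, SD, n = 3) under the label cKO. *Ss18l1* made up 18.2%, 24.4% and 12.1% of the SS18 pair and then 33.5%, 28.0% and 19.6%, with overlapping groups and a difference of 0.67. *Dpf1* and *Dpf3* together made up 19.9%, 10.6% and 13.5% of the 4 PHD-finger genes and then 24.9%, 32.8% and 23.9%. These groups did not overlap, and the difference was 1.12. In every library *Actl6b* stayed below *Actl6a*, *Ss18l1* below *Ss18*, and the sum of *Dpf1* and *Dpf3* below that of *Dpf2* and *Phf10*, although *Dpf3* alone was above *Phf10* in all 6. The ratios are descriptions without a test.

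**Figure D2:**
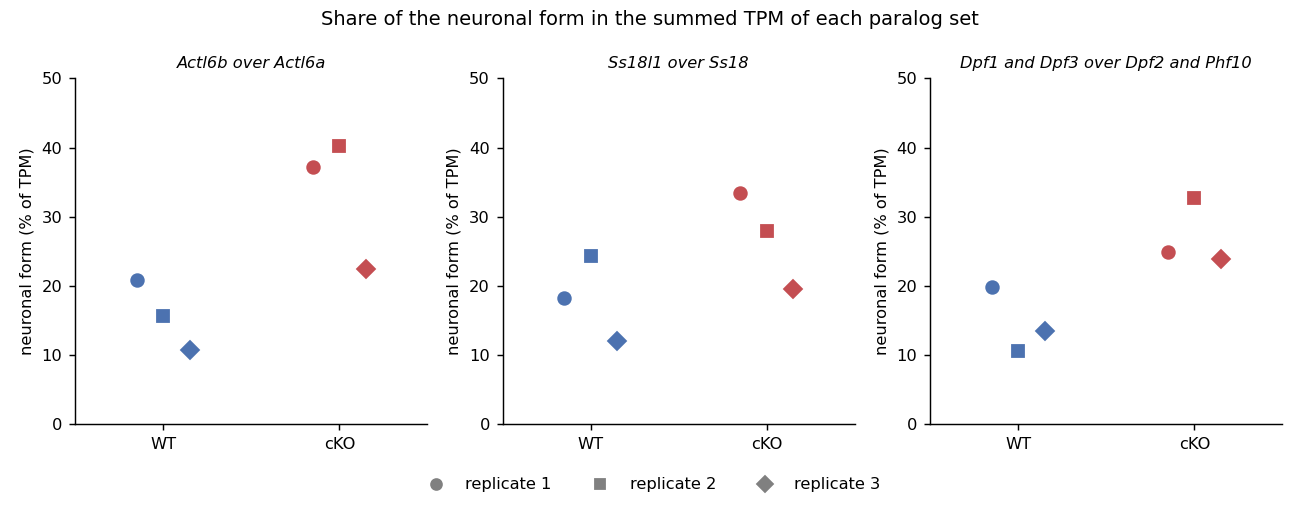
Percent of summed TPM held by the neuronal form in each library labelled WT (blue) or cKO (red), for *Actl6b* beside *Actl6a*, *Ss18l1* beside *Ss18*, and *Dpf1* with *Dpf3* beside *Dpf2* with *Phf10*; symbols give the replicate number. All points lie between 10.6% and 40.3%, and the groups overlap in the SS18 panel.

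Markers of retinal neurons were higher under the label cKO to differing degrees. At an unadjusted p under 0.05 from limma, 7 of 8 pan-neuronal and 5 of 5 cone markers were higher, beside 11.9% of all genes. By that measure 2 of 5 amacrine, 2 of 9 tested RGC and 0 of 6 bipolar markers were higher. The bipolar sums overlapped, at 876 to 1227 TPM under the label WT and 1115 to 1781 TPM under the label cKO. The 8 pan-neuronal markers had a median log2 fold change of 0.99, and their summed TPM was 2006 to 2420 under the label WT and 3435 to 6123 under the label cKO. The 5 amacrine cell markers, such as the GABA-synthesising enzyme genes *Gad1* and *Gad2*, summed to 418, 274 and 214 TPM under the label WT and to 1184, 1077 and 561 TPM under the label cKO. In both labels replicate 3 was the lowest, as it was for *Actl6b*. Per 1000 TPM of these amacrine markers, *Actl6b* stood at 36.4, 47.7 and 38.8 TPM under the label WT and 32.2, 43.0 and 34.4 TPM under the label cKO, with overlapping groups. On this scale the log2 difference of *Actl6b* was -0.17. It depended on the list: 0.061 per rod markers, 0.37 per pan-neuronal, 0.43 per cone, 0.88 per bipolar and 0.90 per RGC markers. The groups overlapped in 6 of 6 lists, and a difference above 0 remained in 5 of them.

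For *Dpf3*, the level per 1000 TPM of the 8 rod markers was 1.78, 1.65 and 1.44 TPM under the label WT and 1.75, 1.35 and 1.24 TPM under the label cKO. These groups overlapped, with a log2 difference of -0.18. Against the RGC list, which is mostly *Thy1*, *Dpf3* was higher in every library labelled cKO (log2 difference 0.66), and against the other 5 lists it overlapped, with log2 differences from -0.40 (amacrine) to 0.64 (bipolar). *Ss18l1* and *Dpf1* overlapped in 5 of 6 lists each, and lay below WT in every library labelled cKO against the amacrine list (log2 differences -0.74 and -0.60). These scalings were chosen after the values were seen, and the part that cell composition plays in the results was not tested.

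**Figure D3:**
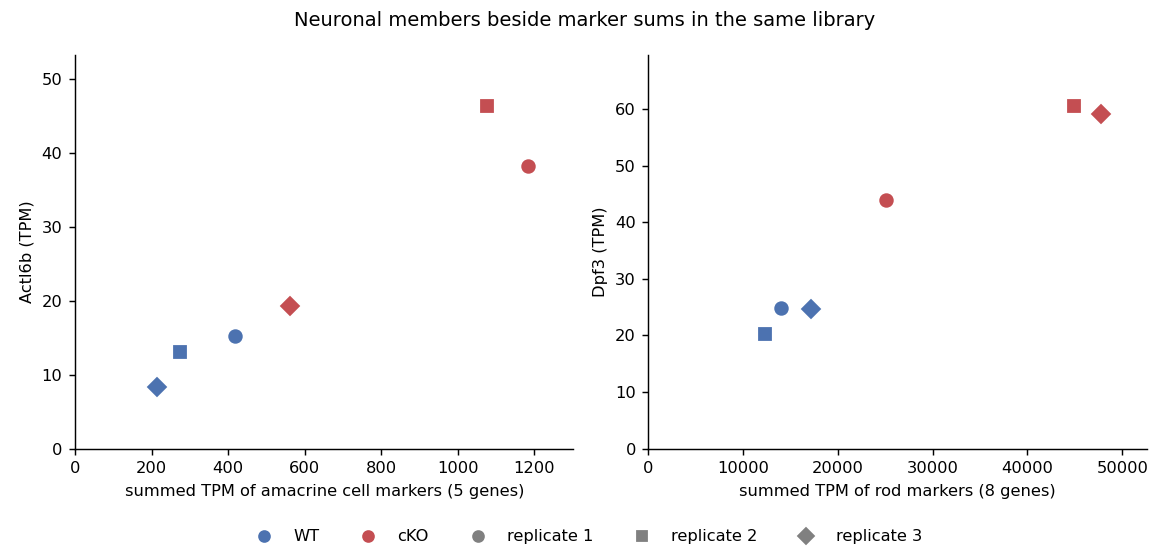
*Actl6b* TPM against the summed TPM of 5 amacrine cell markers (left) and *Dpf3* TPM against the summed TPM of 8 rod markers (right), 1 point for each of the 6 libraries, with linear axes from 0. The libraries with the higher marker sums, labelled cKO (red), are those with the higher member level.

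The genes whose profile over the 6 libraries was nearest to that of *Actl6b*, among 10343 with a mean of at least 10 TPM, were *Cacng5*, *Cacng3*, *Mgat4c*, *Syt4* and *Cpne8*. Likeness was the root mean square difference of log2(TPM + 1) after each gene was centred on its mean, and it ran from 0.0900 to 0.167 for these genes. *Cacng5* and *Cacng3* encode auxiliary subunits of the TARP family and *Syt4* a synaptotagmin. Nearest to *Actl6a*, at 0.0357 to 0.0477, were *Hsd17b4*, *Vps36*, *Xrcc5*, *Virma* and *Fxr1*. For *Dpf3*, looked up after its values were seen, the nearest genes were *Opn1mw* (0.0537), *Rom1* (0.0879), *Crx*, *Gm47543* and *Ckmt1*, in that order. *Opn1mw*, *Rom1* and *Crx* encode a cone opsin, an outer segment protein and a photoreceptor transcription factor. No photoreceptor role is given here for *Gm47543* and *Ckmt1*. The 6 libraries share their labels, cells and processing, and these are descriptions.

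The other subunits of the complex were looked at for comparison. Of 20 further BAF genes tested, 10 had a log2 fold change above 0 and 10 below. At an unadjusted p under 0.05 from limma, 0 of 20 were higher, beside 11.9% of all genes, and 0 of 20 lower, beside 6.45%. Their median was 0.057, and it was -0.10 after scaling by the median of ratios. *Arid1a* had a log2 fold change of 0.66 (95% interval -0.0039 to 1.32, adjusted p = 0.274 from limma). *Smarca4* and *Smarca2*, the ATPase genes, had 0.27 and 0.41, with intervals that span 0. These ATPase genes, and *Ptbp1* and *Rest* below, were picked out after their values were seen. Of 5 regulators tied to the neuronal programme (*Rest*, *Rcor1*, *Rcor2*, *Ptbp1* and *Ptbp2*), *Ptbp2*, the neuronal splicing regulator, was the 1 gene past an unadjusted p under 0.05. It was higher under the label cKO, as 11.9% of all genes were by that measure. *Ptbp2* had 69.1, 83.9 and 68.7 TPM under the label WT and 127, 121 and 113 TPM under the label cKO (log2 fold change 0.70, unadjusted p = 0.00836, adjusted p = 0.151 from limma). *Ptbp1*, its counterpart in other cells, had a log2 fold change of -0.62 (95% interval -1.31 to 0.069), and *Rest*, the repressor of neuronal genes, one of -0.50 (95% interval -1.19 to 0.19).

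**Figure D4:**
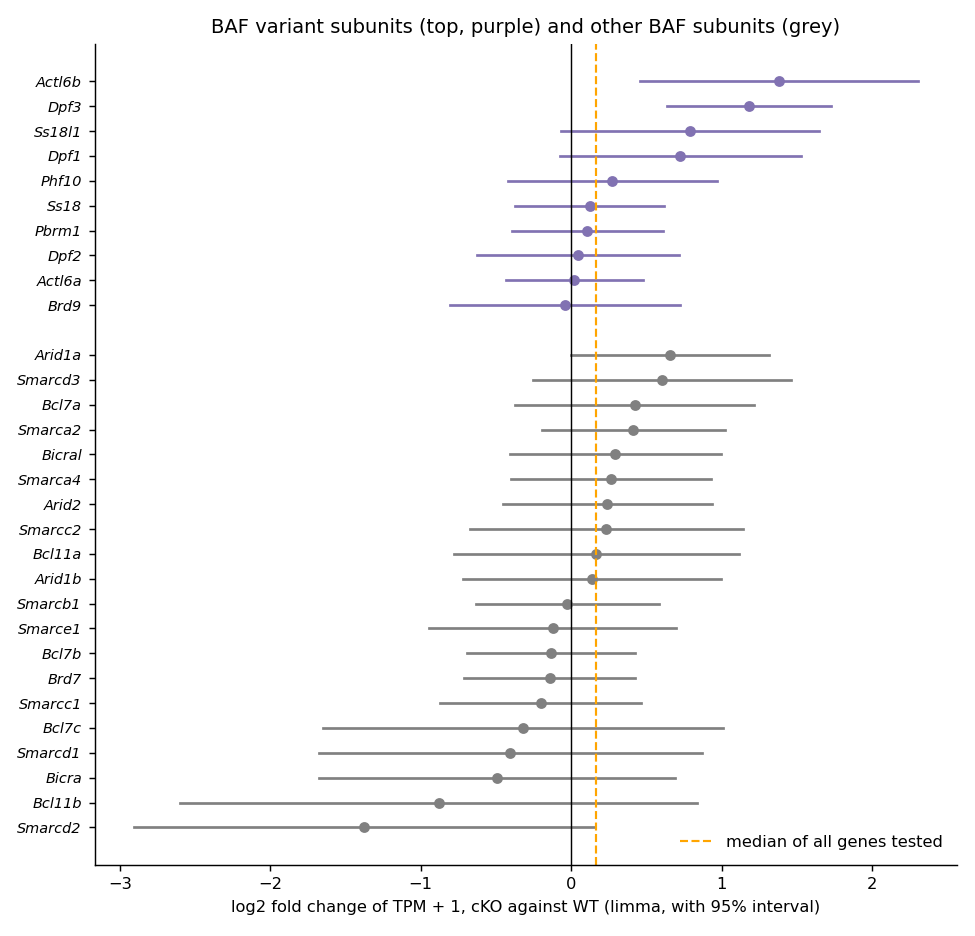
Log2 fold change of TPM + 1 for libraries labelled cKO against WT, with the 95% interval from limma, for the 10 variant subunits (purple) and 20 other BAF genes (grey); the dashed line is the median of all genes tested, 0.16. The intervals of *Actl6b* and *Dpf3* lie above 0, and no adjusted p was under 0.05.

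The ATAC-seq comparison gives, per region, the log2 of mean normalised reads in each group and no normalised value per library. No spread could therefore be computed here, and the test columns that came with the table were not used, so the differences below carry no test. Regions within 1000 bp of a gene end were lower under the label cKO almost throughout: 95.1% of 8002 had a difference under 0, with a median of -2.50. At member genes there were 6 such regions, belonging to 5 genes, and 5 of the 10 genes had none; of genes tested by RNA-seq with a known position, 51.5% had one. All 6 were lower under the label cKO, and 4 of 6 had a log2 difference of -2 or lower, where 67.6% of gene-end regions did. At 5 of the 6, both WT libraries had a peak and neither cKO library did. The share of all gene-end regions with that pattern was not computed. A region listed through peaks under 1 label tends to be lower under the other, so these differences partly follow from where peaks were called. The median over the 6 was -2.25 (5.71 under WT and 3.22 under cKO as log2 reads). The peak lists made per library held 76522 and 42265 peaks for WT and 55902 and 68317 for cKO. A peak lay at an end of 6 of the 10 genes in WT replicate 1, beside 65.1% of the genes tested by RNA-seq with a known position, and of 5 in WT replicate 2, beside 58.2%. For cKO replicate 1 it was 2 of 10, beside 13.6%, and for cKO replicate 2 it was 0 of 10, beside 13.9%. The members' counts were near these shares.

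The region at the start of *Actl6a*, chr3:32708285-32709190 on GRCm38, covers the whole promoter window printed above. It had 133 normalised reads under the label WT and 6.23 under the label cKO, a log2 difference of -4.42. Of gene-end regions, 3.95% had a difference as low, and its WT level ranked 171 of 8002. Its cKO level, 2.64 as log2 reads, was close to the median of gene-end regions, 2.62. The size of the difference thus went with the high WT level. Both WT libraries had a peak there and neither cKO library did. RNA of *Actl6a* in the same comparison of labels differed by 0.022 on the log2 scale, as given above, in other libraries of the series.

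At the start of *Dpf3*, the region chr12:83486730-83488562 had 66.3 and 11.9 normalised reads, a log2 difference of -2.48, close to the median of gene-end regions. *Dpf3* RNA was higher in the RNA-seq libraries labelled cKO, so the 2 readouts had opposite signs at this gene. That is not particular to *Dpf3*: 95.1% of gene-end regions were lower, and 10733 of 17555 genes tested had an RNA log2 fold change above 0. Inside this long gene lay 4 further regions, at least 63953 bp from either end, with log2 differences of -1.10, -0.95, -0.63 and 0.38. The region at the start of *Ss18l1*, chr2:180041584-180043117, had 57.7 and 9.45 normalised reads (log2 difference -2.61). It also lies at an end of *Psma7*, a proteasome subunit gene, so the region cannot be given to one of the 2 genes. At the far end of *Ss18l1*, near *Mtg2*, a weaker region went from 17.1 to 9.13 reads (-0.91).

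*Brd9* and *Dpf2* fell on either side of the value used. The region at the start of *Brd9*, chr13:73937478-73938529, had 47.2 and 11.7 normalised reads (-2.01) and lies also at *Trip13*; it was the one member region with a peak in a cKO library, replicate 1. For *Dpf2*, chr19:5912291-5913023, they were 25.3 and 8.94 reads (-1.50), and an end of *Gm42067* also lies within 1000 bp of this region. Every one of the 6 regions had a peak in both WT libraries. The share of all gene-end regions with such peaks was not computed, so these peak counts have no background.

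**Figure D5:**
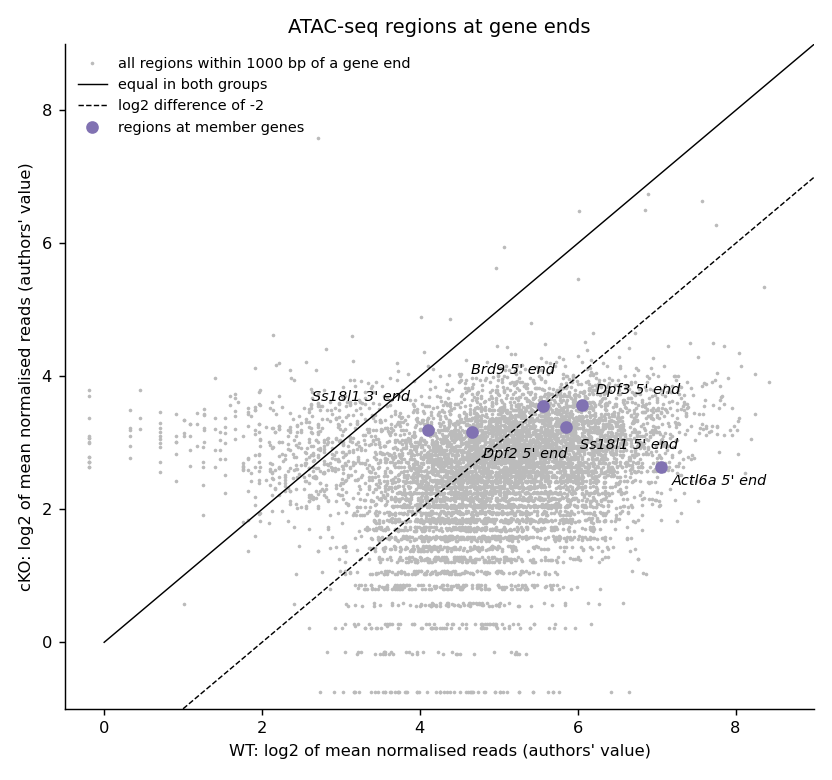
Log2 of mean normalised reads under the label cKO (vertical) against WT (horizontal) for 7999 regions within 1000 bp of a gene end (grey; 3 further regions lie beyond the axes) and the 6 regions at member genes (purple). The solid line marks equal values and the dashed line a log2 difference of -2; *Actl6a* lies farthest below it among the members.

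The remaining 5 genes, *Actl6b*, *Dpf1*, *Phf10*, *Pbrm1* and *Ss18*, had no region within 1000 bp of an end. At *Actl6b* neither WT library had a peak, and cKO replicate 1 had 1 at the start of the gene (chr5:137553583-137553813) and 1 within it. At *Dpf1*, WT replicate 2 had 1 peak inside the gene and the other 3 libraries none. *Pbrm1* had a peak over its start in WT replicate 1 alone, chr14:31018618-31019181. Just past the window lay a region inside *Ss18*, 1091 bp from the gene boundary at position 14684419, with a log2 difference of -2.98. Another lay 1307 bp past the 3' end of *Phf10*, with -2.66. Both regions had peaks in both WT libraries and in neither cKO library. *Ss18* is on chromosome 18 from 14625629 to 14684419.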

How the data were processed

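Retinal cells sorted for Thy1.2 gave 6 RNA-seq and 4 ATAC-seq libraries, grouped by their titles. The authors deposited TPM per gene and library, made with Trimmomatic, Salmon 1.0.0 and tximport on GENCODE annotation (GRCm38). For ATAC-seq the authors deposited log2 mean normalised reads per group (Bowtie2 2.3.5.1, DiffBind) and peak positions per library, given as other values without height; MACS2 2.2.5 is named in the submitters' processing notes. Columns of the authors' own fold changes, p-values and FDR were not used. Depth is not given, which limits the precision that can be stated.

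Genes with at least 1 TPM in at least 3 of 6 libraries were kept and log2(TPM + 1) was fitted with limma 3.58.1 (trend) in R 4.3.3, with Benjamini-Hochberg adjustment over 17555 genes; the step was tested on simulated data. The study fitted counts with DESeq2 1.26.0, which TPM does not allow. Same-numbered libraries deviated together (correlations across genes of 0.334, 0.101 and 0.425 within pairs; cKO replicate 2 correlated best with WT replicate 1), so the replicate block was an alternative, beside the pseudocount, filters, scaling, trend and each library left out. Regions were joined to RefSeq gene ends on GRCm38.p6, with region starts in the table counted from 0 and printed from 1. Members and lists were chosen with earlier results of these data known. The text names all 10 members, *Arid1a* and any other BAF or regulator gene of the lists at an unadjusted p under 0.05, and for *Actl6a* and *Actl6b* the 5 genes of most similar profile; other names, the *Dpf3* profile and the marker scalings were added after values were seen. Python 3.11.15, scipy 1.17.1 and matplotlib 3.10.9 were used otherwise.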

Additional observations from a re-analysis of the deposited data

How the results depend on the processing

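Of 207 values recomputed under the alternatives, 189 kept their direction and their side of the threshold or stayed close to the value given. For the members' fold changes the threshold was an adjusted p of 0.05, which none passed in any setting. Only a turn of sign could therefore count as a change there, and moves in unadjusted p were not counted. The members past an adjusted p under 0.05 numbered 0 under every alternative run. With the replicate block, 4 members were higher at an unadjusted p under 0.05, and with each library left out in turn there were 2 to 4, 4 without cKO replicate 3 and 3 without WT replicate 2. Among these fits, the share of all genes is given above only for the block and without cKO replicate 3. Over all genes, limma without a trend gave 4 higher genes at an adjusted p under 0.05, and the replicate block gave 1 lower gene; leaving out each library gave 1 higher and 0 to 1 lower genes, the 1 being without WT replicate 2, cKO replicate 1 or cKO replicate 3. The block changed no other call among the members. Scaling by the median of ratios turned the sign of *Actl6a* (-0.15), *Dpf2* (-0.12), *Ss18* (-0.044) and *Pbrm1* (-0.056), which lay near 0 throughout. With a library left out, *Actl6a* ran from -0.067 to 0.074, *Dpf2* from -0.20 to 0.21 and *Brd9* from -0.34 to 0.18, each turning sign. The differences in paralog ratio ran from 1.09 to 1.72 for *Actl6b*, 0.38 to 0.93 for *Ss18l1* and 0.88 to 1.41 for the DPF genes with a library left out. *Dpf1* did not reach a mean of 5 TPM and was not tested there. No paired analysis was possible because of group means being all that is given, for the ATAC-seq regions. The 95% intervals of the progenitor forms, up to 0.97 for *Phf10*, show what 3 libraries a group leave undetected, and depth is unknown.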

Other observations

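WT replicate 2 stood apart for some of the other BAF genes. *Smarcd2*, an alternative BAF60 subunit, had 66.3 TPM there against 14.1 and 10.2 TPM in the other libraries labelled WT and 6.45 to 8.85 TPM in those labelled cKO. *Smarcd1*, another BAF60 gene, had 42.7 TPM there and between 9.13 and 16.2 TPM in the other 5 libraries. This library also had the fewest genes above 0 TPM, 20942, where the other 5 had 23764 to 24963. The neuronal BAF60 gene *Smarcd3* had 7.19, 18.4 and 10.8 TPM under the label WT and 18.3, 20.8 and 14.6 TPM under the label cKO, so its groups overlapped through WT replicate 2.

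*Bcl11b*, which is listed among BAF subunits and is also a defining T cell transcription factor, had 15.8, 1.00 and 7.68 TPM under the label WT and a mean of 2.61 ± 0.352 TPM (SD, n = 3) under the label cKO. The 7 T cell markers followed the same order among the libraries labelled WT, at 800, 289 and 628 TPM. These genes were chosen after their values were seen.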
